A study of Mus musculus with 9 samples.

Results

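Immune cells of brown fat were followed through 35 marker genes, listed by name for pan-leukocyte, macrophage and monocyte, dendritic and major histocompatibility complex (MHC) class II, T, cytotoxic and natural killer (NK), B and plasma, neutrophil and mast cells. Each symbol matched 1 Ensembl identifier, so all 35 were found among the 55416 genes of the count table. The tissue was interscapular brown fat of C57BL/6J mice that express Cas9 and were 8-10 weeks old. AAV8, an adeno-associated virus, was injected directly into the fat. It delivered either a Ucp1 guide RNA, which directs Cas9 to the gene of uncoupling protein 1, or a control guide. The animals then lived at 22 °C for 14 days. By the labels, 5 samples received the control guide and 4 received the other, and Cas9, the virus and the injection were common to both.

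The count table has 9 columns, each headed by a number and the letters BAT, the labels' abbreviation for the tissue. These headings show neither the guide nor the sample. The libraries are called A to H and J, in the order of their heading numbers. No library was placed with a guide, and no comparison between the guides was made. Whether a library that stands apart below received the control or the Ucp1 guide cannot be told. The sources do not say how many animals gave RNA to a library, and no library from uninjected fat was analysed here.

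Resident macrophages, mast cells and lymphocytes lie between the adipocytes and along the vessels of adipose tissue. Macrophages clear lipid and dead cells. Dendritic cells and some macrophages carry peptides on MHC class II molecules, which CD4+ T cells read. CD8+ T cells and NK cells kill through granzymes, and neutrophils and monocytes enter from blood after injury or infection. In RNA from whole tissue, fewer cells of a type and less RNA per cell cannot be told apart.

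The 9 libraries held 15460829 to 17909534 counts. Levels are given as CPM, a gene's count divided by its library total on the usual scale. The floor of 3 counts used in ratios corresponded to 0.168 to 0.194 CPM. The exact 2-sided 95% upper limit for a count of 0 was at most 0.239 CPM, in library F. Adipoq, the adipocyte hormone, ranged from 576 to 735 CPM and Cidea, a lipid droplet protein of brown adipocytes, from 1265 to 1749 CPM, so the adipocyte markers of the labelled tissue were abundant in every library. Ucp1 itself ranged from 396 to 4620 CPM, and its level was not used to place a library. Of the 35 markers, 16 reached a mean count of 10 over the libraries and 19 did not. The 19 include every marker of the T, cytotoxic and NK, B and plasma, and neutrophil classes.

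Library H stood apart for these genes. It had the highest CPM for 24 of the 35 markers, and for 13 of the 16 with a mean count of 10 or more. Itgax, among the 13, reached that mean count only through library H. Over all 13227 genes with a mean count of 10 or more, 15.9% had their highest CPM in library H. That share covers only such genes, so the 24 of 35, which includes markers with fewer counts, has no matching share. The median of the 16 markers lay 1.05 above their own 9-library medians on the log2(CPM + 0.1) scale in library H, while the median over all genes lay 0.02 above. In the other 8 libraries the same median of the markers lay between −0.41 (library D) and 0.23 (library B). The depth of library H, 17778022 counts, was inside the range of the others, as was its share of counts from mitochondrially encoded genes, 24.9% against 22.3% to 33.9%. This count was examined after the values had been seen.

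**Figure D1:**
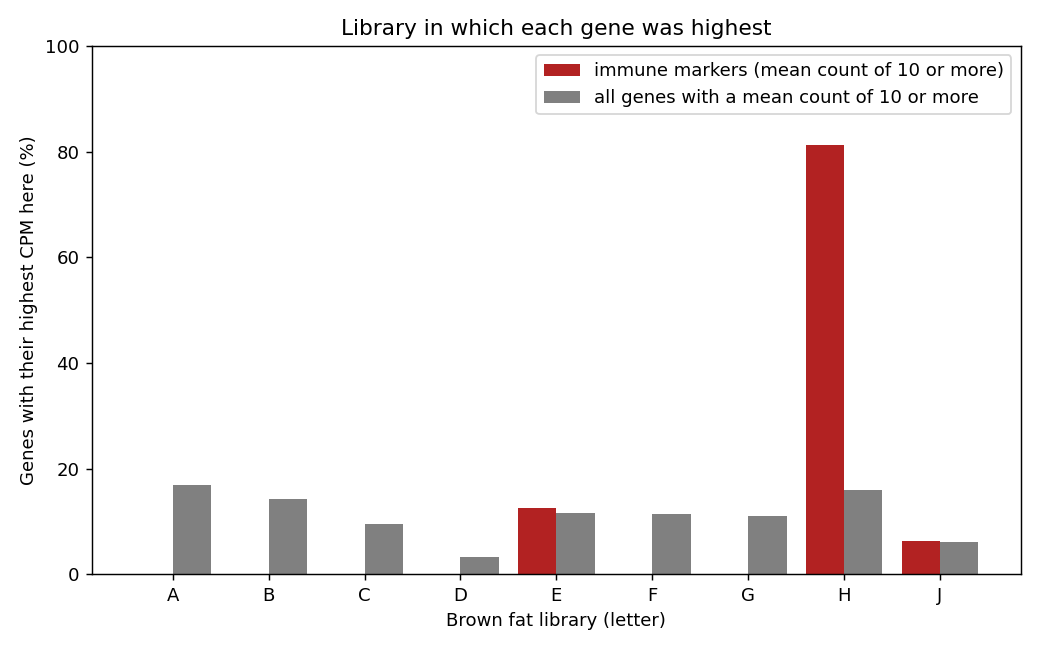
Share of genes (y axis, percent) whose highest CPM was in each of the 9 libraries (x axis), for the 16 immune markers with a mean count of 10 or more (red) and for all 13227 such genes (grey). Library H holds the highest value of 13 of the 16 markers against 15.9% of all genes. Itgax, among the 13, reached that mean count only through library H.

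Spread between libraries was compared with counting error by a Poisson heterogeneity chi-square of the counts against the library totals, with Benjamini-Hochberg adjustment over all genes tested. All 16 tested markers varied beyond counting error at an adjusted p under 0.05, but so did 89.4% of all tested genes, so that count says little about immune genes. A highest-to-lowest CPM ratio of 2 or more was found for 14 of the 16 markers and for 37.1% of all tested genes. Csf1r, with a ratio of 1.89, and Mrc1, just under 2, were the exceptions. Without library H the ratio reached 2 for 9 of the 15 markers still tested, against 34.7% of all genes, and 13 of the 15 varied beyond counting error, against 87.1%. The median biological coefficient of variation, the spread left after counting error, was 0.386 for the markers and 0.161 over all tested genes, and 0.234 and 0.158 without library H. Itgax fell below the count minimum without library H, so that it was tested is owed to the library in which it was highest.

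Levels of different genes were compared after division by the length of the longest GENCODE M21 transcript. The class II genes and Lyz2 led, with median levels of 29.6 CPM per kb for Cd74, 20.9 for H2-Aa, 17.9 for Lyz2, 14.7 for H2-Ab1 and 9.37 for H2-Eb1. Cd68 followed at 4.13, Kit at 2.09, Csf1r at 1.59 and Mrc1 at 1.13 CPM per kb. Each neighbouring pair in the order of all 35 overlapped over the libraries except H2-Eb1 and Cd68, where every value of H2-Eb1 lay above every value of Cd68. All markers of the T, cytotoxic and NK, B and plasma, and neutrophil classes had median levels at or below 0.538 CPM per kb, the median of S100a9. Such levels were not particular to these classes. Ptprc, at 0.504 CPM per kb, also lay below 0.538, as did Gpnmb, Adgre1, Ccl2, Ccr2, Trem2, Itgax, Itgam and Flt3.

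**Figure D2:**
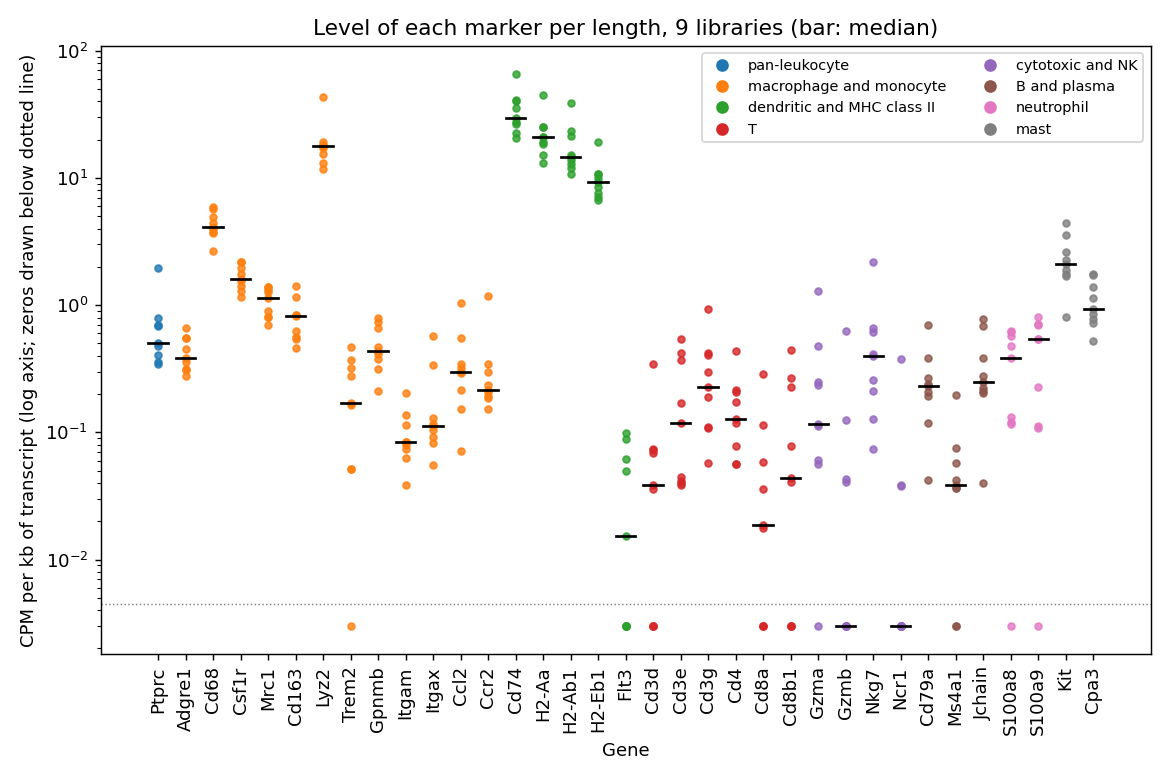
CPM per kb of transcript on a log axis (y) for each marker (x), 1 point per library, coloured by class, with a bar at the median of the 9 libraries; libraries at 0 are drawn below the dotted line. The class II genes and Lyz2 sit highest, with medians of 9.37 to 29.6 CPM per kb. The lymphocyte and neutrophil markers have medians of 0.538 or less, as do Ptprc, Flt3 and several macrophage and monocyte markers.

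Ptprc encodes CD45, the phosphatase on the surface of nearly all leukocytes. Its level was 1.75 CPM in the lowest library, 2.56 CPM at the median and 9.96 CPM in library H. The next library, library F, had 4.01 CPM. The libraries differed beyond counting error for Ptprc (adjusted p = 1.24e-50, chi-square), with a highest-to-lowest ratio of 5.69, or 2.29 without library H.

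The class II genes encode the chains of the peptide-presenting molecules and, in Cd74, the invariant chain that guides their assembly. Cd74 had 29.0 CPM in the lowest library, 41.7 at the median and 93.4 CPM in library H. H2-Aa, the alpha chain of H2-A, had 14.8, 23.6 and 50.5 CPM in the same order. H2-Ab1, its beta chain, had 13.0, 17.8 and 46.9 CPM, and H2-Eb1, the beta chain of H2-E, had 11.2, 15.6 and 31.8 CPM. For all 4 genes library H was highest, as it was for 15.9% of all tested genes. Libraries B and F came next for each, and libraries A and D were among the 3 lowest for each. Summed with Flt3, these genes ran from 71.1 to 223 CPM, a ratio of 3.13, and to 132 CPM without library H, a ratio of 1.86. Without library H the ratios of the single genes lay between 1.62 for H2-Eb1 and 2.18 for H2-Ab1. Flt3, the growth factor receptor of dendritic cell precursors and dendritic cells, had at most 6 counts in any library and none in 4.

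H2-Aa and H2-Eb1, whose levels each followed H2-Ab1 across the libraries as described below, have upstream regions in the RefSeq table of GRCm38.p6, a build other than the GRCm39 named for the counts. The 250 bases before each gene's start are shown because class II promoters are known for a shared module that includes the Y box, bound by NF-Y. The letters searched were CTGATTGG on either strand (CCAATCAG on the other), and capitals mark the match. The window shown for H2-Aa is chr17:34287824-34288073 on the minus strand, and that for H2-Eb1 is chr17:34305617-34305866 on the plus strand.
H2-Aa: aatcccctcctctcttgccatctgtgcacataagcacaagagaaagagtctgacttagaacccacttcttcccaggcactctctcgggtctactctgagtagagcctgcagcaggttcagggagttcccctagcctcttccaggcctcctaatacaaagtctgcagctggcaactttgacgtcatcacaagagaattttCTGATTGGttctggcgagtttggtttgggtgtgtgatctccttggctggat
H2-Eb1: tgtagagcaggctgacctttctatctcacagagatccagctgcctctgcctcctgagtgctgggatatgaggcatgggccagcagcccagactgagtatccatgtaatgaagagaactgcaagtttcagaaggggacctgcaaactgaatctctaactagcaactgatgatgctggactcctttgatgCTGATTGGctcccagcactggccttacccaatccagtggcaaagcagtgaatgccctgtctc
The match lies in the gene's own orientation in both, with 43 bases between it and the start of H2-Aa and 54 bases before H2-Eb1. Of the 27 markers with an entry in the table, H2-Aa and H2-Eb1 were the 2 with the match, and 3.83% of all 32851 upstream regions of this length hold it. H2-Ab1 had no entry, and Cd74, whose level also followed H2-Ab1, was not among the matches. The match is a description of the letters only.

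Among the macrophage markers, Lyz2, lysozyme of macrophages, monocytes and neutrophils, had 15.4 CPM in the lowest library, 23.6 CPM at the median and 56.6 CPM in library H. The other 8 libraries ended at 25.3 CPM, and the highest-to-lowest ratio of 3.68 was 1.64 without library H. Ccr2, the chemokine receptor of blood-derived monocytes, had 0.877, 1.24 and 6.75 CPM, with library H at 5.45 times the median and the next library, library B, at 1.97 CPM. Ccr2 had the largest biological coefficient of variation of the 16 tested markers, 0.946. Without library H, Ccr2 no longer varied beyond counting error at an adjusted p of 0.05 (chi-square), and neither did Adgre1. Itgax, the integrin CD11c of dendritic cells and some macrophages, had 0.226, 0.453 and 2.31 CPM, and library B was second at 1.38 CPM.

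Csf1r, Mrc1 and Cd163 were not highest in library H. Csf1r, the receptor of the macrophage growth factor CSF1, had 5.44 CPM in the lowest library, 7.49 at the median and 10.3 CPM in the highest, which was library E. Library H followed at 10.2 CPM. Mrc1, the mannose receptor CD206, had 3.72, 6.08 and 7.43 CPM, again with library E and library H next to each other at the top. Cd163, the receptor for haemoglobin bound to haptoglobin, had 2.03, 3.63 and 6.24 CPM and was highest in library J.

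Adgre1, which encodes F4/80, had 0.897, 1.24 and 2.14 CPM, and Cd68, a lysosomal glycoprotein, had 3.30, 5.08 and 7.31 CPM. Both were highest in library H, ahead of the next library by little, 1.80 CPM for Adgre1 and 6.98 CPM for Cd68. The biological coefficients of variation of Csf1r, Cd68, Mrc1 and Adgre1 lay between 0.205 and 0.234, against 0.360 for Gpnmb, 0.365 for Cd163 and 0.477 for Lyz2. Gpnmb, a glycoprotein of lipid-laden macrophages, had 0.782, 1.61 and 2.92 CPM, with library J close behind library H at 2.73 CPM.

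The remaining macrophage and monocyte markers were too low to test. Trem2, the lipid-sensing receptor, had 0 to 9 counts per library. Itgam, the integrin CD11b of monocytes, macrophages and neutrophils, had 3 to 17 counts. Both were highest in library H. Ccl2, the chemokine that draws CCR2-bearing monocytes, had 1 to 15 counts and was highest in library A at 0.846 CPM against 0.450 CPM in library H.

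**Figure D3:**
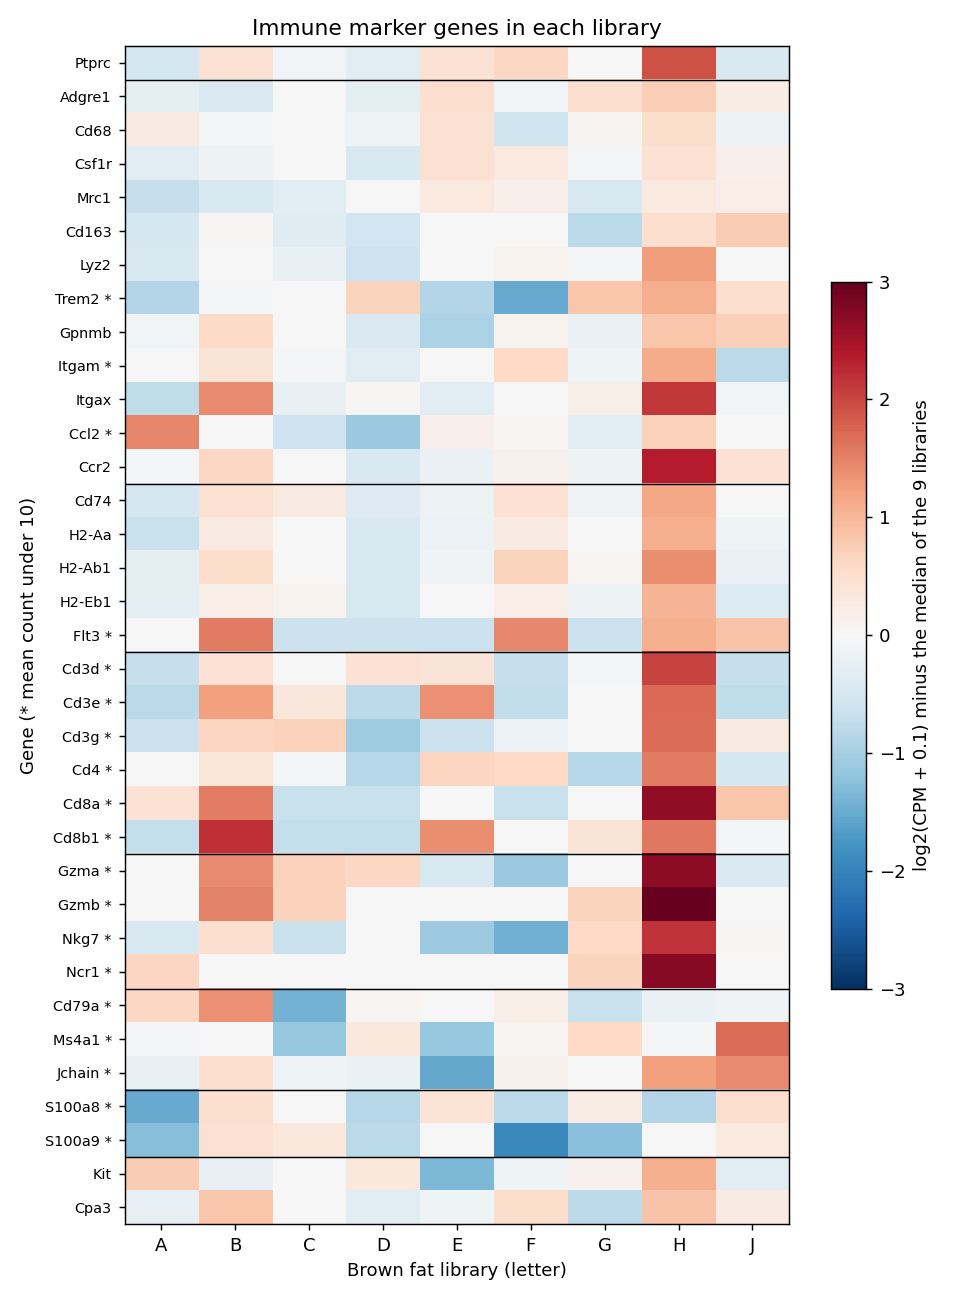
Colour gives log2(CPM + 0.1) minus the median of the 9 libraries for each marker (rows, grouped by class with Ptprc at the top; * marks a mean count under 10) in each library (columns). The column of library H is red for Ptprc, Ccr2, Itgax, the class II genes and the T and cytotoxic rows, and pale for Csf1r, Mrc1, Cd79a and Ms4a1.

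T cell genes were near the floor in most libraries. Cd3g, a chain of the T cell receptor complex, had 0.0585 CPM in the lowest library, 0.232 at the median and 0.956 CPM in library H, where 17 reads were counted. Its partner Cd3e had 0.0564, 0.174 and 0.787 CPM, and Cd3d reached 10 counts in library H and at most 2 in any other library. Cd4, the helper T cell co-receptor that some myeloid cells also carry, had 0.174, 0.395 and 1.35 CPM.

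Cd8a, a chain of the killer T cell co-receptor, was at 0 in 3 libraries and reached 16 counts in library H. Cd8b1, its other chain, was also at 0 in 3 libraries but was highest in library B, with 11 counts against 7 in library H. Over the 6 T cell genes the summed count ran from 7 in library D to 88 in library H, or 0.409 to 4.95 CPM. Library B was second at 2.63 CPM.

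The cytotoxic genes were low in 8 libraries and higher in library H. Nkg7, a granule protein of NK and killer T cells, had 0.0647 CPM in the lowest library, 0.351 at the median and 1.91 CPM in library H. Gzma, a granzyme, had 23 counts in library H and at most 8 elsewhere. Gzmb, another granzyme, had 16 counts there, 3 in library B and none in 5 libraries. Ncr1, the NK cell receptor NKp46, had 10 counts there, 1 in each of libraries A and G and none in the other 6. For Ncr1 the exact 2-sided 95% upper limit was at most 0.239 CPM for a count of 0 (library F) and 0.324 CPM for 1 count (library G). Both lay below the 0.562 CPM of Ncr1 in library H, whose own counting error is not given here. The summed level of the 4 genes was 4.67 CPM in library H and at most 1.20 CPM in the others.

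The 3 B and plasma cell markers had mean counts under 10, so a few reads can set the order of the libraries. Cd79a, a signalling chain of the B cell receptor, had 0.0619, 0.335 and 1.02 CPM and was highest in library B. Ms4a1, which encodes CD20, was at 0 in 2 libraries and had 10 counts in library J. Jchain, which joins secreted antibodies of plasma cells, had 0.0558, 0.348 and 1.09 CPM, with library J ahead of library H at 0.956 CPM. None of the 3 was highest in library H. Of the antibody genes given below, which had more reads, Ighm was highest in library H and Igkc in library J.

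Neutrophil genes were scarce. S100a8 and S100a9, the calcium-binding proteins that neutrophils carry in bulk, had at most 5 and 7 counts in a library. Their summed level ran from 0.0564 CPM in library A to 0.718 CPM in library B, and library H had 0.337 CPM, the median of the 9.

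The 2 mast cell markers, Kit and Cpa3, showed no clear correlation over the libraries (r = 0.11), though both were highest in library H. Cpa3, the carboxypeptidase of mast cell granules, had 0.755, 1.36 and 2.53 CPM, with library H and library B level at the top. Kit, the receptor of stem cell factor, which other cell types also carry, had 4.24 CPM in library E, 11.0 CPM at the median and 23.1 CPM in library H, with library A second at 18.6 CPM. The ratio of 5.45 for Kit was 2.61 without library E. In library A, Cpa3 was at 1.13 CPM, below its median. The mast cell proteases Mcpt4 and Tpsb2, described below, were also under their medians there, at 2.20 and 2.03 CPM. Mcpt4, like Kit, was lowest in library E. Correlation of Kit or Cpa3 with these proteases was not tested.

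Correlation over the libraries was tested for 26 pairs of markers, 18 within a class and 8 between classes, with log2(CPM + 0.1), a two-sided exact permutation test and Benjamini-Hochberg adjustment over the 26 pairs. The libraries hold both guides in an unknown arrangement, so a difference between the guides is contained in each value and cannot be taken out. With Pearson's r, 7 pairs had an adjusted p under 0.05, and with Spearman's rho, 4. Without library H, 3 pairs passed with Pearson's r and none with Spearman's rho, and 4 pairs had an unadjusted exact p under 0.05 with Pearson's r.

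The 3 class II pairs passed with Pearson's r over all 9 libraries and on leaving out any 1 of them. For H2-Aa and H2-Ab1, r was 0.96 (exact adjusted p = 0.00167) and rho was 0.95 (exact adjusted p = 0.00917). For H2-Ab1 and H2-Eb1, r was 0.95 (exact adjusted p = 0.00167) and rho was 0.93 (exact adjusted p = 0.00974). For H2-Ab1 and Cd74, r was 0.95 (exact adjusted p = 0.00167) and rho was 0.90 (exact adjusted p = 0.0132). Without library H the 3 values of r were 0.88, 0.87 and 0.89, each with an exact adjusted p of 0.0494. Without the 2 libraries farthest from the median of the first gene, r was 0.96, 0.85 and 0.85, and the exact adjusted p was then 0.0636 for H2-Eb1 and 0.0748 for Cd74, which lost their calls.

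Ptprc followed H2-Ab1, with r = 0.94 (exact adjusted p = 0.00455) and rho = 0.90 (exact adjusted p = 0.0132). Without library H r was 0.83 (exact adjusted p = 0.0646), and without the 2 libraries farthest from the median of Ptprc it was 0.74. Ptprc and Cd3e had r = 0.73 (exact adjusted p = 0.0496) and rho = 0.78 (exact adjusted p = 0.0896). That pair lost its call under each other scaling of library size and on leaving out any 1 library except library F, and r was 0.97 without the 2 farthest libraries and 0.59 without library H. Ptprc and Adgre1 had r = 0.53 (exact adjusted p = 0.224) and rho = 0.30, and r fell to 0.08 without library H.

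The cytotoxic pairs rested on few libraries. Gzma and Nkg7 had r = 0.85 (exact adjusted p = 0.0276) and rho = 0.70 (exact adjusted p = 0.161), and without library H r was 0.64 (exact adjusted p = 0.301). Gzmb and Nkg7 had r = 0.85 (exact adjusted p = 0.0344) and rho = 0.64 (exact adjusted p = 0.243), and without library H r was 0.56 (exact adjusted p = 0.366). Without the 2 libraries farthest from the median of the granzyme, r was 0.50 for Gzma and 0.37 for Gzmb. Leaving out any 1 of libraries A, B, E, F and H also ended the call of both pairs.

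Other pairs of the same cell type did not pass. Adgre1 and Csf1r had r = 0.74 (exact adjusted p = 0.0876) and rho = 0.70, and passed without library G (r = 0.84, exact adjusted p = 0.0433). Mrc1 and Cd163 had r = 0.67 (exact adjusted p = 0.132) and rho = 0.58. Adgre1 and Cd68 had r = 0.55 (exact adjusted p = 0.214), and Cd68 and Lyz2 had r = 0.38 (exact adjusted p = 0.410) with rho = 0.03.

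The T cell pairs had mean counts of 5.33 or less and did not pass. Cd8a and Cd8b1 had r = 0.69 (exact adjusted p = 0.112) and rho = 0.60. Cd3e and Cd3g had r = 0.59 (exact adjusted p = 0.190) and rho = 0.55, and passed without library E (r = 0.86, exact adjusted p = 0.0209). Cd3d and Cd3g had r = 0.56 (exact adjusted p = 0.214) and rho = 0.29.

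The B cell and neutrophil pairs also had mean counts under 10. Cd79a and Ms4a1 had r = 0.20 (exact adjusted p = 0.732), and S100a8 and S100a9 had r = 0.60 (exact adjusted p = 0.190). The mast cell pair had more reads, with mean counts of 209.8 for Kit and 26.7 for Cpa3, and r was 0.11 (exact adjusted p = 0.860) with rho = −0.12.

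As a description over all 120 pairs of the 16 tested markers, the median r was 0.55 for the 43 pairs within a class and 0.53 for the 77 pairs between classes. Without library H these medians were 0.35 and 0.29. The 6 class II pairs kept a median of 0.95, and 0.88 without library H, while the 36 macrophage pairs had 0.50 and 0.24. Kit had a median r of 0.25 with the other 15 markers, and −0.37 without library H. All of these points share library totals.

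**Figure D4:**
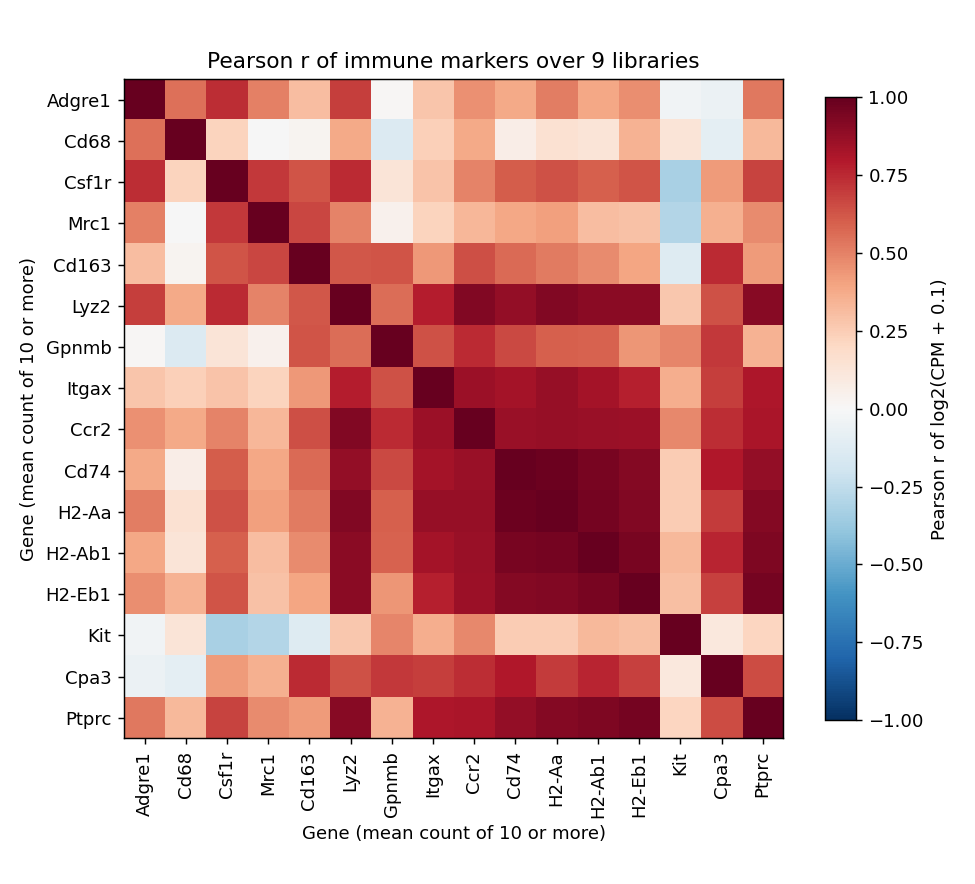
Pearson r of log2(CPM + 0.1) over the 9 libraries for each pair of the 16 markers with a mean count of 10 or more (both axes), from −1 (blue) to 1 (red). The class II genes, Lyz2, Ccr2, Itgax and Ptprc form a red block with class II pairs at a median of 0.95, and the Kit row is pale, with a median of 0.25.

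Genes of the whole table whose levels were most like a marker were listed by Pearson r over the 9 libraries, as a description. Around H2-Ab1 the 5 nearest of the tested genes were Irf8 (r = 0.97), Myo1f (r = 0.96), Itgal (r = 0.96), H2-Aa and Cd74. Around Cpa3 they were Irf7 (r = 0.95), Mical1, Akna, Cma1 (r = 0.93) and Mrpl33. Around Adgre1 they were Rap1b (r = 0.94), Xkr6, Rab11a, Rsph3a and Cnbp.

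The other 3 anchors had mean counts under 10, and their nearest genes rest on few reads. For Cd3e they were Unc13d (r = 0.91), Jmjd4, Zfp97, Ccl5 (r = 0.88) and Hist1h2be. For Cd79a they were Glg1 (r = 0.96), Tspyl4, Sall2, Fam110b and Gm28523. For S100a8 they were Rrbp1 (r = 0.95), Pyroxd2, Arrdc1, Zfp263 and Usp37.

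A second list of 44 immune genes outside the 35, with 14 at a mean count of 10 or more, was set beside them. Of the 14, 10 were highest in library H, against 15.9% of all tested genes, and 13 had a ratio of 2 or more, against 37.1%. Beyond counting error, 13 of the 14 varied, close to the 89.4% of all tested genes. Their median biological coefficient of variation was 0.347. C1qa, a complement chain made by tissue macrophages, had 4.74, 7.54 and 14.6 CPM with library H highest, and C1qb, its partner, reached 15.2 CPM in library H from a median of 10.4 CPM. Mertk, a receptor for dying cells, was highest in library C at 14.7 CPM. Lyve1, a marker of vessel-associated macrophages that lymphatic endothelium also carries, reached 3.94 CPM in library H and 3.65 CPM in library C. Ciita, the master activator of class II genes, had 0.116 CPM in the lowest library, 1.06 at the median and 2.92 CPM in library H. Of the 6 further dendritic genes, only Ciita and Ccr7 were highest in library H. Xcr1, Clec9a and Siglech were highest in library F and Cd209a in library C, each with at most 11 counts in a library. In library H, Siglech was at 0 and Clec9a was at 0.506 CPM, next to 0.517 CPM in library F.

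All 4 further NK and cytotoxic genes were highest in library H. Prf1, perforin, had 18 counts there and at most 5 elsewhere. Eomes, a transcription factor of NK and killer T cells, had 8 counts in library H and 7 in library C. Trac, the T cell receptor alpha constant region, reached 2.31 CPM in library H from a median of 1.11 CPM, next to 2.17 CPM in library C. Gata3, a factor of helper T cells and innate lymphoid cells, was highest in library G at 2.56 CPM. The mast cell proteases Mcpt4 and Tpsb2 reached 3.77 and 4.50 CPM in library H, from medians of 2.45 and 2.15 CPM. The next libraries had 3.62 CPM for Mcpt4 (library F) and 2.66 CPM for Tpsb2 (library C).

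Antibody genes were well above the B cell surface markers per length. Ighm, the mu heavy chain, had 8.13, 16.7 and 25.1 CPM, or a median of 9.84 CPM per kb, and Igkc, the kappa light chain, had 0.391, 2.63 and 6.31 CPM, or a median of 4.95 CPM per kb, against 0.230 CPM per kb for Cd79a. Ighm was highest in library H and Igkc in library J. The neutrophil genes Csf3r and Retnlg had at most 17 and 2 counts in a library, and Ly6g had none in any. The monocyte genes Ly6c2 and Plac8 had at most 12 and 15 counts, and the dendritic and T cell homing receptor Ccr7 had at most 10. The eosinophil genes Siglecf and Epx had at most 1 count.

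Markers of other tissue that could be dissected with brown fat were set beside these values. Of the 4 lymph node stroma genes, Glycam1 was at 0 in all libraries, Madcam1 had 1 count in 1 library, and Cxcl13 had at most 12. Ccl19 had 4 counts in library H, 2 in library B and none in the other 7. The summed level of the 4 genes ran from 0.179 to 0.726 CPM and was 0.619 CPM in library H. That sum is mostly Cxcl13, with 61 counts over all libraries against 6 for Ccl19. The 5 skeletal muscle genes summed to 208 to 2834 CPM, with library F highest and library H at 700 CPM, below the median of 766. The 5 red blood cell genes summed to 237 to 458 CPM and stood at 346 CPM, the median, in library H.

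Of the genes of dividing cells, Mki67 had 4.56 CPM there against at most 1.91 CPM elsewhere, and Top2a had 1.80 CPM, next to 1.84 CPM in library E. Endothelial genes summed to 385 CPM in library H, inside the range of 369 to 586 CPM. The part of dividing cells, or of any of these lists, in the immune levels of library H was not tested.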

How the data were processed

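RNA of brown fat was sequenced. The authors deposited 1 table of whole-number counts per Ensembl gene, with no normalization. The submitters' processing notes name FastQC, STAR, DESeq2 and GRCm39. For annotation release, strand setting and counting mode, nothing was given in the sources used here, so the reads of overlapping genes cannot be told apart. By GENCODE M21, exons of 4 markers (Cd3e, Cd74, Csf1r and Itgam) overlap another gene. Column names matched the labels only by tissue, so all 9 columns were 1 group, and 0 columns were left out. Nothing says whether they came from separate animals, and spread or p-values over them cover these samples only.

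Symbols came from the gene name table (52083 of 55416 identifiers matched). CPM used the column sum. Genes with a mean count of 10 or more (13227) were tested. A count under 3 was set to 3 in ratios. The chi-square and exact tests were tested on simulated data. The lowest chi-square per gene between any 2 columns was 10.9, so no pair agreed within sampling noise. Limits for a count of 0 cover counting error only. Tools were Python 3.11.15, SciPy 1.17.1 and, for scaling, R 4.3.3 with edgeR 4.0.16 and DESeq2 1.42.0. Named genes are all 35 markers, the 5 nearest to each of 6 anchors, and in each other list the 2 highest and the 2 most variable. Adipoq, Cidea, Ucp1, Ly6g, Glycam1, Ccl19, Xcr1, Clec9a, Siglech and Cd209a are also named, chosen after their values were seen. Members, lists and pairs were chosen with earlier results of these data known. Alternatives were 3 other library scalings, 2 other count minimums, another pseudocount, Spearman's rho and leaving out libraries.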

Additional observations from a re-analysis of the deposited data

Results flagged for a closer look

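Each result below had 1 library far from the other 8, by the gap to its neighbour relative to the whole range. Of 96 levels examined, 31 met this. The rule was meant to be met by chance in about 1 in 20, but genes with few counts need not keep to that rate. Madcam1, for example, met it with 1 count in 1 library. The share of all genes that meet the rule is not given here, so 31 of 96 cannot be set against chance. Levels of genes that move together are not separate observations.

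In 25 of the 31 the library was library H, at its highest. Among the markers these were Ptprc at 9.96 CPM, Lyz2 at 56.6, Ccr2 at 6.75, Cd74 at 93.4, H2-Aa at 50.5, H2-Ab1 at 46.9 and H2-Eb1 at 31.8 CPM. They also include the low-count markers Cd3d at 0.562, Cd3g at 0.956, Cd4 at 1.35, Cd8a at 0.900, Gzma at 1.29, Gzmb at 0.900, Nkg7 at 1.91 and Ncr1 at 0.562 CPM. The summed levels were 103 CPM for macrophages and monocytes (38.1 to 56.9 in the others), 223 CPM for the dendritic and class II genes (71.1 to 132), 4.95 CPM for T cells (0.409 to 2.63) and 4.67 CPM for cytotoxic and NK cells (0.0647 to 1.20). Of the 103 CPM of macrophage and monocyte genes, 56.6 were of Lyz2 alone. Of those 12 genes, 8 were highest in library H, and Csf1r, Mrc1, Cd163 and Ccl2 were not. Outside the 35 markers, the 4 further NK genes summed to 2.53 CPM, with Prf1 at 1.01 CPM. C1qa stood at 14.6, Tpsb2 at 4.50 and Mki67 at 4.56 CPM, and the 2 genes of dividing cells summed to 6.36 CPM (0.226 to 3.13).

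Other libraries stood out for single genes. Ccl2 was at 0.846 CPM in library A (15 counts), Ms4a1 at 0.606 CPM in library J (10 counts) and Madcam1 at 0.0558 CPM in library E (1 count). Ppargc1a, a transcriptional coactivator of mitochondrial genes, was at 392 CPM in library E against 46.7 to 149.5 CPM in the others. The muscle genes Acta1 and Tnnt3 were at 1032 and 420.0 CPM in library F.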

How the results depend on the processing

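No paired analysis was possible because neither a replicate number nor a guide can be read from the column headings. Other library scalings (TMM, DESeq2 size factors, or totals without mitochondrial and the 10 most counted genes) left the counts of markers and genes within 1.5 times. They gave 11 to 12 of 16 markers highest in library H, an alternative chosen after seeing the data. The share of all genes highest there under these scalings is not given, and the 15.9% holds for the column sum only. With no count minimum, 32 of 35 markers varied beyond counting error, as did 14918 of 25095 genes, and 32 had a ratio of 2 or more, as did 8360; with a mean count of 50, 9 of 11 markers and 2286 of 10323 genes had that ratio. Leaving out 1 library gave 9 to 14 markers with that ratio, beside 4528 (of 13215) to 4735 (of 13232) of all tested genes. Of 26 pairs, 4 passed with Spearman's rho, 1 without the 2 libraries farthest from the median, and 3 to 6 on leaving out 1 library (4 without library A, 4 without library B, 3 without library H). No direction of a called pair reversed under these alternatives. Depth limits the 19 markers under a mean count of 10: a few reads decide their value in most libraries.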

Other observations

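Genes of the tissue around the immune cells are given as values. Fabp4, a fatty acid carrier of adipocytes, ranged from 3364 to 5070 CPM and Ppargc1a from 46.7 to 392 CPM. Among endothelial genes, Cdh5 ranged from 140.1 to 226 CPM, Kdr from 116 to 168, Pecam1 from 60.5 to 116 and Tie1 from 36.5 to 76.3 CPM, and library B was highest for all 4. Among fibroblast genes, Dcn ranged from 66.9 to 97.9 CPM, Col1a1 from 28.8 to 90.5 and Col3a1 from 29.1 to 126 CPM, and library A was lowest for all 3. The muscle gene Myh4 ranged from 51.4 to 686 CPM. Hba-a1, Hbb-bs and Alas2, genes of red blood cells, ranged from 134 to 231, 48.4 to 113 and 3.96 to 13.8 CPM, each highest in library J; Hba-a1 has a near-identical copy, so how its reads were divided is uncertain.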
